A study of Danio rerio with 6 samples.

Results

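The 10 genes described here encode transcription factors of the AP-1 group and other immediate early factors, named by symbol as *jun*, *junba*, *junbb*, *jund*, *fosab*, *fosl1a*, *fosl2*, *atf3*, *egr1* and *ier2a*. Each symbol matched 1 row of the deposited table, so 10 of its 27335 genes are covered. The members were chosen with their values in mutants and wild-type already known. Their differences between genotypes are therefore given as a description, and where members are counted as passing, nothing is read from the count.

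Whole zebrafish larvae at 5 dpf were compared between maternal zygotic (MZ) *tafazzin* mutants and wild-type larvae, with 3 pools of 25 larvae per genotype and 1 library per pool. The mutants carried on both copies the frameshift allele *taz* lri113, a CRISPR/Cas9 deletion of a single base in exon 3, and had homozygous mutant mothers, so all mutant pools trace to a single allele. The controls were *taz*+/+ offspring of wild-type siblings. Mutants and controls thus had different parents, and a difference of genotype cannot be told apart from one of parents or clutch. No drug or other treatment was given to either genotype, and a value stands for all larval tissues together. *tafazzin* itself, on chromosome 23, was at 12.3, 12 and 8.53 FPKM (sequenced fragments scaled by exon length and mapped depth) in wild-type pools 0, 1 and 2 and at 6.09, 4.58 and 3.84 in mutant pools 0, 1 and 2, with pools named by the number in their column's name, and the genotypes did not overlap. FPKM summed to between 501725 and 540974 per pool, and by the commonest ratio between pools among the lowest values the pools held 0.83 to 1.28 times the fragments of mutant pool 0. The first principal component over all genes tested held 36.1% of the variance. Along it mutant pools 0, 1 and 2 lay at 19.9, 16.4 and 35.2, and wild-type pools 0, 1 and 2 at -29, -32 and -10.5. Pool 2 of each genotype thus stood apart from its other pools in the same direction, which for wild-type pool 2 was towards the mutants. Ratios that moved by over 1.5 times without wild-type pool 2 are given with and without it.

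Immediate early genes are transcribed within minutes of a stimulus, without the need for new protein, from factors that are already in the cell and are switched on by kinases. AP-1 is a dimer of basic leucine zipper (bZIP) proteins, usually a Jun protein with a Fos or ATF partner, that binds short palindromic DNA sites and passes signals of growth factors, wounding, neuronal activity and cell stress to later genes. Most of these messages are short-lived, so their level reports recent signaling in the tissue, and in whole larvae they can come from neurons, skin, muscle or blood cells. In bulk RNA, more cells that express a gene and more RNA per cell cannot be told apart.

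All 10 members had a higher mean FPKM in MZ mutants than in wild-type, from 1.27-fold for *jund* to 5.32-fold for *fosl1a*. For 8 of 10 members every mutant pool lay above every wild-type pool, as in 11.9% of the 21843 genes tested (10.5% were below in the same way), and for *fosab* and *junbb* the genotypes overlapped. The median log2 fold change of the members was 1.04, against 0.002 over all genes tested, on the scale of log2(FPKM + 1). In the limma fit over all genes 0.696% were higher in mutants at an adjusted p under 0.05, and 1 member, *atf3*, was among them. Without wild-type pool 2, 4 members passed, where 1.93% of all genes did, without pool 2 of both genotypes 6 (0.664% of all genes), and with any other single pool left out none (0.0687% to 0.252% of all genes). Because this contrast chose the members, nothing is read from these counts.

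**Figure D1:**
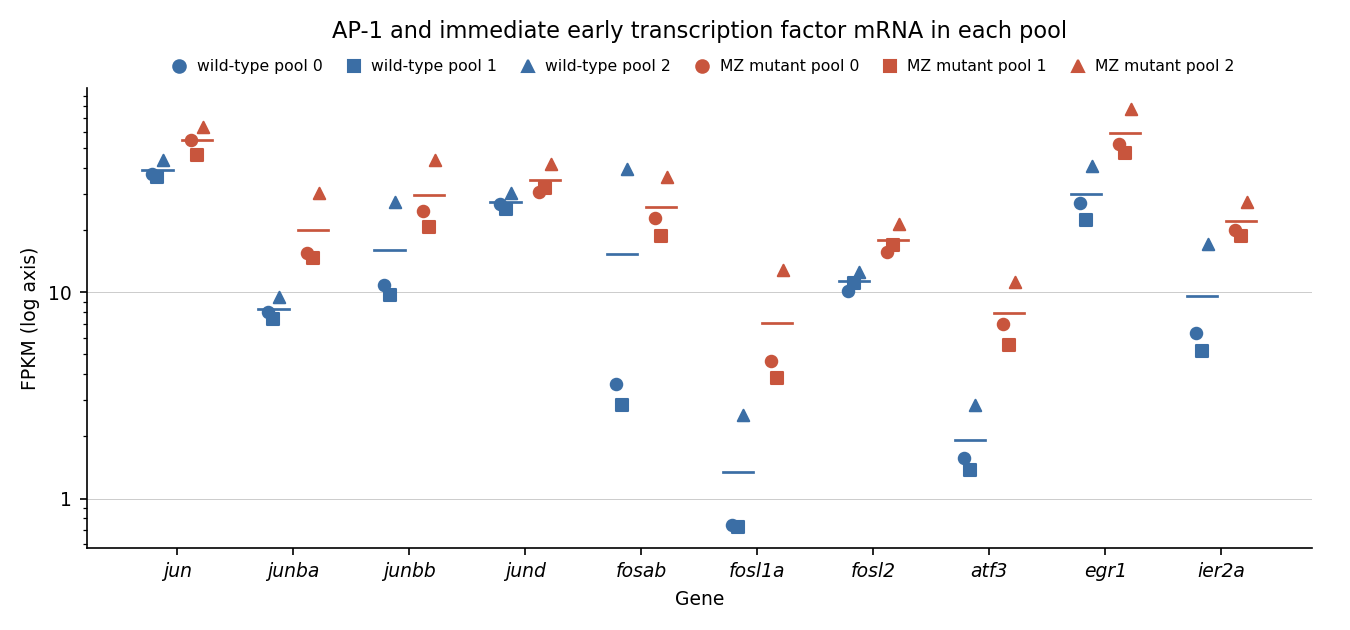
FPKM on a log axis for each member in the 3 wild-type pools (blue) and the 3 MZ mutant pools (red), with the marker shape giving the pool number and bars the mean of each genotype. Triangles, pool 2, are the highest of their genotype for all 10 genes, and the wild-type triangle of *fosab* (39.5) lies above all mutant pools.

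The Jun proteins are the partners that every Fos protein needs to bind DNA. The founding member *jun*, on chromosome 20 of GRCz11 from 15552746 to 15554606, was at 37.5, 36.4 and 44 FPKM in wild-type pools 0 to 2 and at 54.9, 46.3 and 63.6 in mutant pools 0 to 2. The genotypes did not overlap, and the mutant mean was 1.4 times the wild-type mean (55 ± 8.64 against 39.3 ± 4.13, SD, n = 3 pools each). In mammals *JUND* is the more steadily expressed Jun gene, and zebrafish *jund*, on chromosome 2 from 56130314 to 56131312, showed the smallest difference. It was at 26.7, 25.4 and 30.2 FPKM in wild-type pools and 30.6, 32.2 and 41.8 in mutant pools. The gap between the highest wild-type and the lowest mutant pool of *jund* was thus small beside the spread within the mutants, whose SD was 6.04.

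Zebrafish have a pair of genes related to mammalian *JUNB*, a Jun protein that in mammals can restrain or replace Jun, and their pools behaved differently. *junba*, on chromosome 1 from 51732978 to 51734540, was at 8.05, 7.41 and 9.44 FPKM in wild-type pools and 15.5, 14.6 and 30.2 in mutant pools, a 2.42-fold higher mean with no overlap. *junbb*, on chromosome 3 from 7654408 to 7656059, was at 10.8, 9.68 and 27.5 FPKM in wild-type pools and 24.7, 20.8 and 44 in mutant pools. Its wild-type pool 2 lay above mutant pools 0 and 1, so the genotypes overlapped. The mean of *junbb* was 1.87 times higher in mutants, and leaving out wild-type pool 2 raised that ratio to 2.91. For *junba* the same step changed the ratio from 2.42 to 2.6.

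Among the Fos proteins, *fosab* is the zebrafish gene of the *c-fos* type, the textbook immediate early gene. It lies on chromosome 20 from 46552310 to 46554424. *fosab* was at 3.59, 2.84 and 39.5 FPKM in wild-type pools 0, 1 and 2 and at 22.9, 18.7 and 36.3 in mutant pools 0, 1 and 2. Wild-type pool 2 was above every mutant pool and 12.3 times the mean of the other wild-type pools, so a single pool decides the comparison. The ratio of mutant to wild-type means was 1.7 with all pools and 8.08 without wild-type pool 2. The wild-type SD of 21 FPKM exceeded the wild-type mean of 15.3.

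The Fos-like genes *fosl1a* and *fosl2* are related to mammalian *FOSL1* and *FOSL2*, whose products lack the strong activation domain of c-Fos and often follow it in time. *fosl1a*, on chromosome 14 from 30741553 to 30747908, was at 0.748, 0.728 and 2.53 FPKM in wild-type pools and 4.64, 3.86 and 12.8 in mutant pools. This was the largest ratio of means among the members, 5.32, at the lowest level in both genotypes. For *fosl1a* the ratio was 9.64 without wild-type pool 2 and 3.18 without mutant pool 2, where that of *atf3* was 3.26. Wild-type values below 1 FPKM rest on fewer fragments than the higher values of this gene, and how many is not known. On the log2(FPKM + 1) scale, which understates low genes, the difference was 1.72 (standard error 0.42). *fosl2*, on chromosome 17 from 41302605 to 41318554, was at 10.2, 11.1 and 12.6 FPKM in wild-type pools and 15.6, 16.9 and 21.4 in mutant pools. Neither gene overlapped between genotypes, and *fosl2* had the narrower spread, with SDs of 1.2 and 2.99 FPKM around means of 11.3 and 18.

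*atf3* encodes an ATF/CREB family bZIP protein that can pair with Jun and is induced in mammals by many kinds of cell stress. It lies on chromosome 20 from 37794677 to 37800737. It was at 1.58, 1.37 and 2.83 FPKM in wild-type pools and 7, 5.56 and 11.2 in mutant pools. The lowest mutant pool was well above the highest wild-type pool, and the means, 7.91 ± 2.92 and 1.93 ± 0.787 FPKM (SD, n = 3 pools each), differed 4.11-fold. Without wild-type pool 2 the ratio was 5.37, and against wild-type pool 2 alone it was 2.8.

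The other members are not bZIP proteins. *egr1*, on chromosome 14 from 21333719 to 21335961, encodes a zinc finger factor that in mammals is switched on through serum response elements and the ERK kinases. It was at 27, 22.3 and 41.1 FPKM in wild-type pools and 52.5, 47.3 and 77.3 in mutant pools, a 1.96-fold higher mean without overlap. *ier2a*, on chromosome 3 from 33761548 to 33762727, is related to mammalian *IER2*, a small nuclear protein named for its immediate early response. It was at 6.38, 5.19 and 17.2 FPKM in wild-type pools and 20, 18.8 and 27.5 in mutant pools. For *ier2a* the ratio of means was 2.31. It was 3.82 without wild-type pool 2 and 1.29 against wild-type pool 2 alone, which lay just below the lowest mutant pool. No other gene of the deposited table overlapped the span of any member.

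By level, *jun* came first in wild-type larvae, followed by *egr1*, *jund*, *junbb*, *fosab*, *fosl2*, *ier2a*, *junba*, *atf3* and *fosl1a*, from 39.3 down to 1.34 FPKM, a measure that is per length of exon. Of the neighbours in that order, *junba* and *atf3* alone did not overlap in their wild-type pools. In the mutants *egr1* had the highest mean (59 ± 16 FPKM, SD, n = 3 pools), and its pools overlapped those of *jun*. The mutant pools of *jun* lay above those of *jund*, and those of *fosl2* above those of *atf3*, while the other neighbours in the mutant order overlapped. *atf3* and *fosl1a* were the lowest members in both genotypes. *fosab* was the eighth of the 10 in wild-type pools 0 and 1 and the third in wild-type pool 2.

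The pools within each genotype also had a common order. In all 10, pool 2 was the highest wild-type pool and pool 2 was also the highest mutant pool, a pattern met in 15.2% of all genes tested. Taken alone, pool 2 was the highest wild-type pool in 38.8% and the highest mutant pool in 35.8% of all genes. Wild-type pool 2 exceeded the mean of the other wild-type pools by a median of 0.68 over the members on the log2(FPKM + 1) scale, and mutant pool 2 exceeded the other mutant pools by a median of 0.69. The same medians over all genes were 0.02 and 0.01. The lowest wild-type pool was pool 1 for 9 members and the lowest mutant pool was pool 1 for 8. The column numbers are not tied to a batch or clutch by any label.

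The excess in wild-type pool 2 was uneven among the members. It was 3.27 for *fosab*, 1.43 for *ier2a*, 1.34 for *junbb*, 1.02 for *fosl1a*, 0.72 for *egr1* and 0.63 for *atf3*, as differences of log2(FPKM + 1). It was between 0.21 and 0.26 for *junba*, *jun*, *fosl2* and *jund*. A larger excess than that of *fosab* was found in 3 of 21843 genes, and all 3 were listed at 0 in wild-type pools 0 and 1. In mutant pool 2 the largest excess was that of *fosl1a* (1.4), followed by *junba* (0.96) and *junbb* (0.93), while *fosab* was at 0.78. The standard deviation within genotypes was also uneven. It was 1.38 for *fosab* on that scale, exceeded by 0.151% of genes, and 0.19 for *jun*, *jund* and *fosl2*, exceeded by 50.7% to 51.9% of genes.

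**Figure D2:**
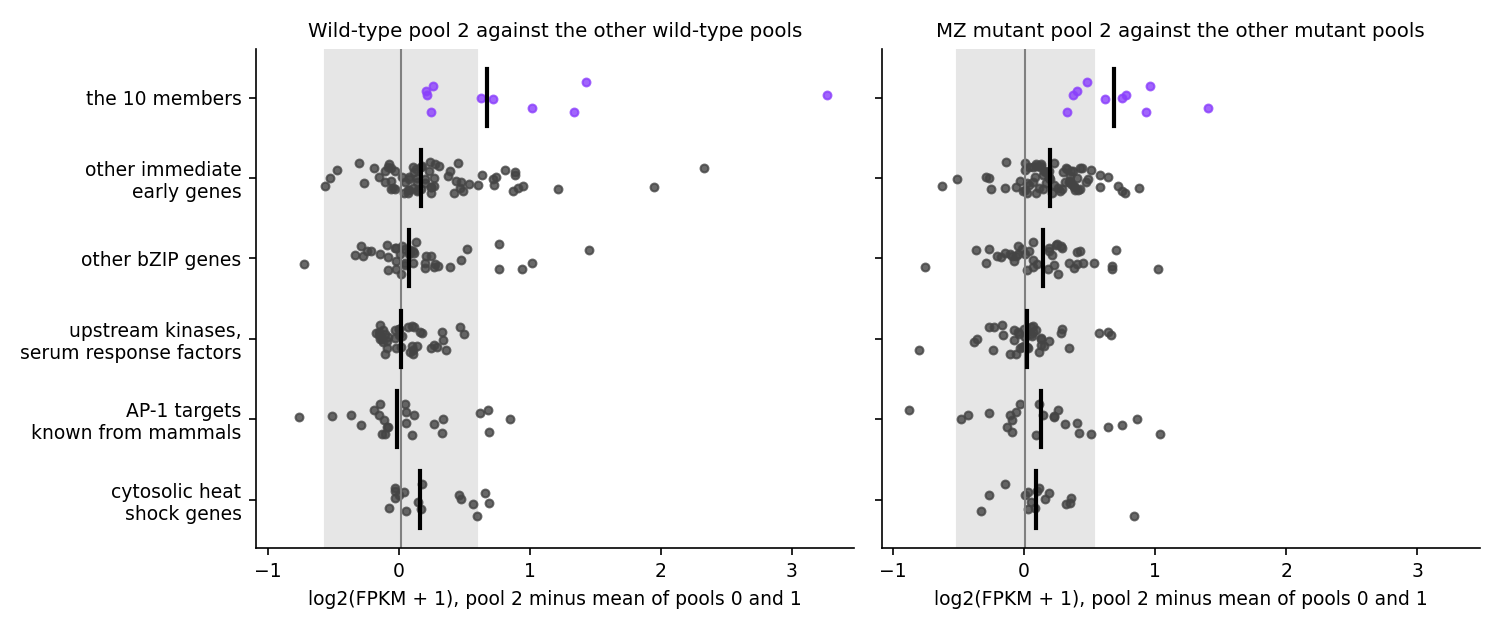
Difference in log2(FPKM + 1) between pool 2 and the mean of pools 0 and 1, within wild-type (left) and within MZ mutants (right), for the members and for the related gene lists; points are genes, black bars list medians, the grey band the 5th to 95th percentile and the grey line the median of all genes tested. The members have medians of 0.68 and 0.69, and the point at 3.27 on the left is *fosab*.

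Among non-member genes averaging at least 5 FPKM, the 5 whose values followed the median deviation of the members most closely over the 6 pools were *hk2*, *phkg1a*, *si:dkey-23n7.10*, *hspa4a* and *ptgs2b*. Their root mean square difference from it was 0.12 to 0.148 on the log2(FPKM + 1) scale, against a median of 0.66 over the 13254 genes compared and of 0.3 over the members themselves. Being the smallest of 13254 values, those of the 5 are not comparable with the median of the members, which ranged from 0.082 (*egr1*) to 0.866 (*fosab*). *hk2* encodes a hexokinase, the enzyme of the opening step of glycolysis, and was at 2.79, 2.81 and 4.58 FPKM in wild-type pools and 7.25, 5.94 and 10.7 in mutant pools. *ptgs2b*, a cyclooxygenase gene whose mammalian relative is itself an immediate early gene, was at 2.59, 2.1 and 5.17 FPKM in wild-type pools and 8.86, 6.4 and 11.7 in mutant pools. Both had pool 2 as the highest pool of each genotype. The 5 were picked for likeness to the members, so this order and their higher mutant values follow from the choice. None of the 5 passed between genotypes (limma adjusted p = 0.0553 to 0.082). *phkg1a* encodes a catalytic subunit of phosphorylase kinase, and *hspa4a* a chaperone of the heat shock protein family.

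A hand-written list of other Fos, ATF/CREB, small Maf and related bZIP genes, which does not cover all bZIP genes, differed little between genotypes in its median. Of 42 bZIP genes tested none passed at an adjusted p under 0.05 from limma, where 0.911% of all genes did. At an unadjusted p under 0.05, 6 were higher and 4 lower, where 9.88% and 6.4% of all genes were. Their median log2 fold change was 0.10, and 25 of 42 had a positive value, against 11013 of 21843 over all genes tested. Wholly above the wild-type pools were 8 (19%) and wholly below 4 (9.52%), against 11.9% and 10.5% of all genes. Pool 2 was the highest of both genotypes for 10 (23.8%), against 15.2% of all genes. The closest relatives of *fosab* and *fosl1a* differed from one another. *fosb* was at 0.943, 0.837 and 4.15 FPKM in wild-type pools and 4.68, 3.77 and 7.47 in mutant pools, with wild-type pool 2 inside the mutant range (limma adjusted p = 0.179, and 0.0309 without wild-type pool 2). *fosaa*, the other *c-fos* gene, measured 4.23, 3.67 and 9.04 FPKM in wild-type pools and 6.49, 5.51 and 9.07 in mutant pools (limma adjusted p = 0.612). *fosl1b* measured 0.74, 0.647 and 1.04 FPKM in wild-type pools and 1.06, 1.4 and 0.314 in mutant pools, with mutant pool 2 the lowest of all (limma adjusted p = 0.948). The smallest p of the list were those of *crema*, a CREM family gene of cyclic AMP signaling, at 33.1 ± 4.68 FPKM in wild-type against 58.4 ± 17.2 in mutants (SD, n = 3 pools each, limma adjusted p = 0.0958), and of *nfe2l1a*, whose deposited span overlaps another gene, at 13.4 ± 1.76 and 18.2 ± 1.64 FPKM (limma adjusted p = 0.142).

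Of 70 other immediate early genes tested 4 rose in MZ mutants and none fell, while 66 did not pass, where 0.696% of all genes rose and 0.215% fell. *nr4a3*, an orphan nuclear receptor gene, rose from 5.17, 4.75 and 8.27 FPKM in wild-type pools to 13.8, 14.5 and 15.7 in mutant pools (log2 fold change 1.18, standard error 0.18, limma adjusted p = 0.0306). Its mutant pools lay close together, with an SD of 0.958 FPKM. *rgs2*, a regulator of G protein signaling, rose from 1.89, 3.47 and 2.68 to 6.01, 6.45 and 6.34 FPKM (limma adjusted p = 0.0468), and *nfkbiaa*, an inhibitor of NF-κB, from 17.4, 15.5 and 13.1 to 24.7, 24.9 and 29.1 FPKM (limma adjusted p = 0.0361). *mcl1b*, of the anti-apoptotic part of the Bcl-2 family, rose from 57.5, 61.2 and 60.4 to 84.8, 81.6 and 95.3 FPKM (limma adjusted p = 0.0333). Of these 4 genes *nr4a3* alone had its highest wild-type value in pool 2. The calls of *nr4a3*, *mcl1b* and *nfkbiaa* were lost when any 1 pool other than wild-type pool 2 was left out (limma adjusted p = 0.0751 to 0.137), and that of *rgs2* when any 1 pool was (0.0597 to 0.166). Without wild-type pool 2, 6 genes of the list passed, all higher in mutants, where 1.46% of all genes passed as higher.

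The list as a whole had a median log2 fold change of 0.17, with 53 of 70 values positive, against 11013 of 21843 over all genes tested. Of the 70 genes 19 (27.1%) had every mutant pool above every wild-type pool and 4 (5.71%) every mutant pool below, against 11.9% and 10.5% of all genes. At an unadjusted limma p under 0.05, 22 were higher and 2 lower, where 9.88% and 6.4% of all genes were. Pool 2 was the highest of both genotypes for 33 of 70 (47.1%), against 15.2% of all genes. Some classic members of the list, chosen for naming after their values were seen, had a wild-type pool 2 above every mutant pool, as *fosab* did. *npas4a*, a neuronal activity-dependent factor whose deposited span overlaps that of another gene, was at 2.69, 3.5 and 19.5 FPKM in wild-type pools and 11.8, 8.92 and 14.2 in mutant pools. *egr4*, of the same zinc finger family as *egr1*, measured 4.07, 2.2 and 14.6 FPKM in wild-type pools and 8.41, 7.79 and 12.6 in mutant pools. The antiproliferative gene *btg2* measured 26.6, 34.6 and 72.2 FPKM in wild-type pools and 54.8, 61.7 and 71.4 in mutant pools, and *dusp1*, a phosphatase that switches off MAP kinases, 29.3, 32.2 and 57 FPKM in wild-type pools and 39.9, 38.1 and 47.2 in mutant pools. In each of these wild-type pools 0 and 1 lay below all mutant pools. A wild-type pool 2 that was the highest wild-type pool and above all mutant pools was found in 15 of 70 genes of the list (21.4%) and in 17.7% of all genes tested, so the share itself was near that of all genes.

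**Figure D3:**
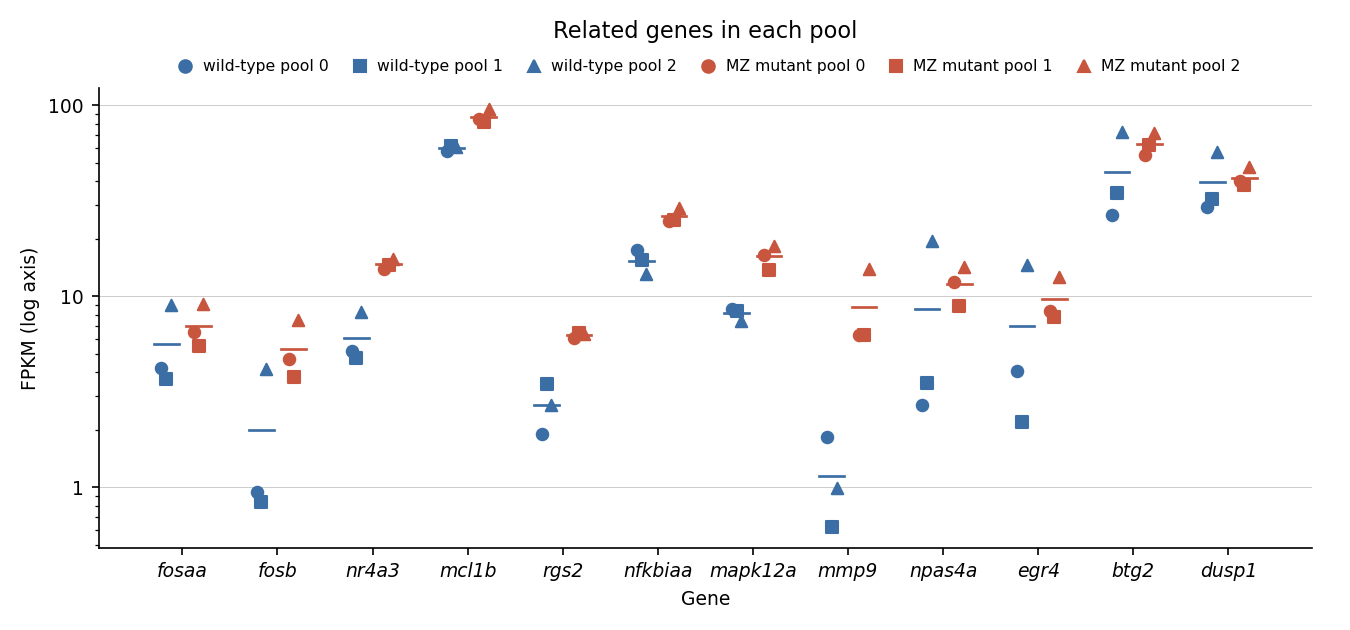
FPKM on a log axis for related genes in the 3 wild-type pools (blue) and the 3 MZ mutant pools (red), with marker shapes for pools and bars for the genotype means. *nr4a3*, *mcl1b*, *rgs2*, *nfkbiaa*, *mapk12a* and *mmp9* do not overlap between genotypes, while wild-type pool 2 of *npas4a* (19.5), *egr4* (14.6), *btg2* (72.2) and *dusp1* (57) lies above all mutant pools.

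Of 39 kinases and serum response factors that act upstream of AP-1, 1 rose and none fell, against 0.696% and 0.215% of all genes. *mapk12a*, a p38 MAP kinase gene, was at 8.57, 8.38 and 7.39 FPKM in wild-type pools and 16.5, 13.7 and 18.4 in mutant pools, a 2-fold higher mean (log2 fold change 0.91, standard error 0.13, limma adjusted p = 0.0253). Its call held without mutant pool 1 or wild-type pool 2 and was lost without any 1 other pool (limma adjusted p = 0.0883 to 0.0999). The JNK gene *mapk9* averaged 10.4 ± 0.51 FPKM in wild-type against 14.4 ± 2.13 in mutants (SD, n = 3 pools each, limma adjusted p = 0.148). The median log2 fold change of the list was -0.02, and 19 of 39 values were positive, against 11013 of 21843 over all genes tested. Wholly above the wild-type pools were 4 (10.3%) and wholly below 7 (17.9%), against 11.9% and 10.5% of all genes. At an unadjusted limma p under 0.05, 5 were higher and 2 lower, where 9.88% and 6.4% of all genes were.

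Of 24 genes that AP-1 is known to control in mammals, 1 rose and none fell, where all genes gave 0.696% and 0.215%. *mmp9*, a gelatinase that degrades extracellular matrix, was at 1.82, 0.619 and 0.991 FPKM in wild-type pools and 6.23, 6.25 and 13.8 in mutant pools, a 7.67-fold higher mean (log2 fold change 2.14, standard error 0.31, limma adjusted p = 0.026). Wild-type pool 2 was not the highest wild-type pool for *mmp9*, and the call was lost when any 1 pool other than wild-type pool 2 was left out (limma adjusted p = 0.0624 to 0.0978). *spp1*, which encodes osteopontin, had the next smallest p, with lower values in mutants, at 7.97, 7.87 and 6.8 FPKM in wild-type pools and 4.19, 3.51 and 1.63 in mutant pools (limma adjusted p = 0.0734). The median of the list was 0.09, and 15 of 24 values were positive, against 11013 of 21843 over all genes tested. Wholly above the wild-type pools were 7 of 24 (29.2%) and wholly below 1 (4.17%), against 11.9% and 10.5% of all genes. At an unadjusted limma p under 0.05, 6 were higher and 1 lower, where 9.88% and 6.4% of all genes were.

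**Figure D4:**
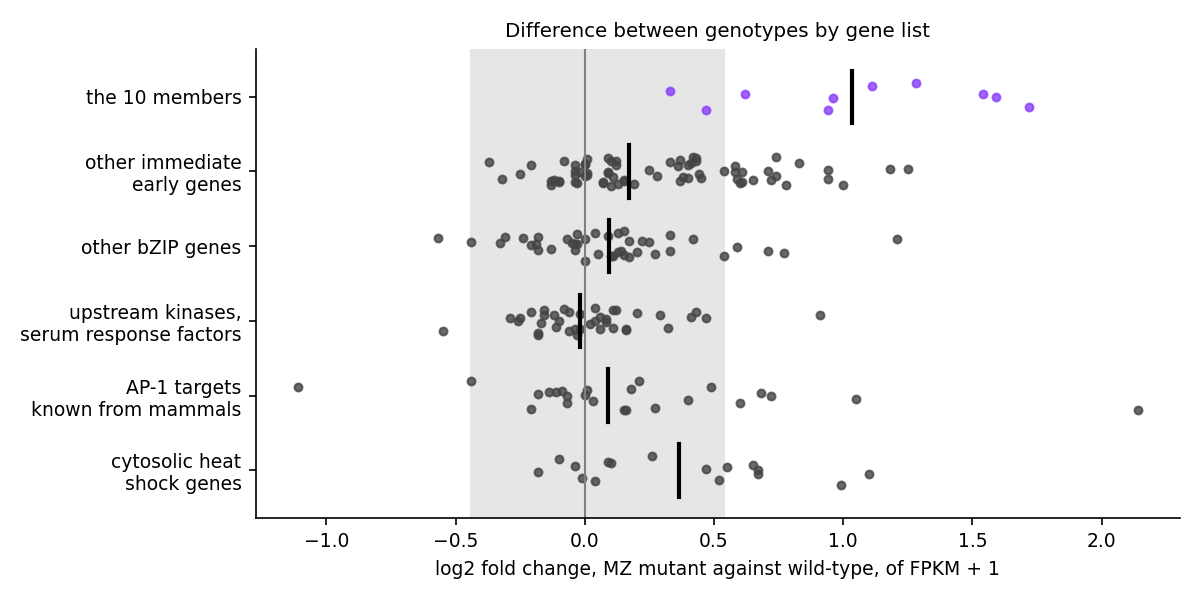
Log2 fold change of FPKM + 1 between MZ mutants and wild-type for each gene of the member set and the related lists; points are genes, black bars list medians, the grey band the 5th to 95th percentile (-0.44 to 0.54) and the grey line the median of all genes tested. The members, which were chosen on this contrast, have a median of 1.04, and the other lists lie between -0.02 and 0.37.

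Heat shock genes and markers of some cell types also differed between the pools, and their part in the values above was not tested. Of 16 cytosolic heat shock genes none passed by limma, where 0.911% of all genes did. At an unadjusted p under 0.05, 8 were higher and none lower, where 9.88% and 6.4% of all genes were. The median log2 fold change was 0.37, and 8 of 16 genes were wholly above the wild-type pools and none wholly below, against 11.9% and 10.5% of all genes. *hspa4a* measured 5.38, 4.49 and 8.56 FPKM in wild-type pools and 12.8, 12.6 and 16.5 in mutant pools (limma adjusted p = 0.0553, and 0.0177 without wild-type pool 2), and *hspb1* at 18.4 ± 0.258 and 26.1 ± 4.04 FPKM (SD, n = 3 pools each, limma adjusted p = 0.0967). Without wild-type pool 2, 3 heat shock genes passed, all higher in mutants, where 1.46% of all genes passed as higher. Summed FPKM of 8 epidermis markers ran from 4420 to 5982 in wild-type and from 3324 to 4121 in mutants, and 1 of the 8, the keratin gene *cyt1*, fell (log2 fold change -0.96, limma adjusted p = 0.0361). The 8 differed in direction, with 3 wholly above (*cldni*, *epcam* and *tp63*) and 3 wholly below (*krt4*, *krt5* and *cyt1*) the wild-type pools. Their sum was lowest in pool 2 of each genotype, the pool in which the members were highest. Singly, 3 of the 8 epidermis markers had their highest mutant value in pool 2, and 0 had their highest wild-type value there. The sums of the liver and endothelial markers given below were also lowest in pool 2 of each genotype. Those of the neutrophil and erythroid markers were highest in pool 2 of each genotype. Singly, all 4 markers of either list had their highest wild-type value in pool 2, but 2 of 4 had their highest mutant value there. For the neuron markers pool 2 was neither highest nor lowest in either genotype, and for the skeletal muscle markers it was lowest in wild-type alone. The macrophage sum was highest in pool 2 of the mutants, while wild-type pools 1 and 2 were both at 14.1. The sum of 6 macrophage markers ran from 12.7 to 14.1 in wild-type and from 16.5 to 22.5 in mutants, and that of 4 neutrophil markers from 40.3 to 58.8 and from 53.2 to 64.7, with none of these 10 passing. Sums of 8 neuron markers were 689 to 745 and 677 to 704, and of 7 skeletal muscle markers 14801 to 18038 and 14869 to 15590. Sums of 8 liver markers were 2454 to 2963 and 2456 to 2726, of 4 erythroid markers 431 to 526 and 503 to 540, and of 4 endothelial markers 33.4 to 40.1 and 32.7 to 36.9, and no gene of these last 5 lists passed. No marker was at 0 in any pool.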

How the data were processed

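RNA from 3 pools of 25 larvae per genotype at 5 dpf was extracted with TRIzol by the authors after euthanasia in ice slurry. Reads were trimmed with Trim Galore 0.4.2, aligned with STAR 2.5.3 to GRCz11 and quantified with Cufflinks 2.2.1. The authors deposited FPKM values per gene and pool, scaled for exon length and mapped fragments, with exon length making levels comparable between genes. Their own means, fold changes and p-values were not used. How Cuffdiff scaled the libraries is not given in the sources used here. Each value is relative to the other genes of its pool.

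Columns were assigned to genotypes by name, and their numbers (0 to 2) could not be tied to single labelled samples. The methods treat each pool as an independent sample but also speak of a single clutch, so p-values are relative to the spread between these pools. Because the genotypes had different parents, p-values between genotypes do not separate genotype from parents or clutch. No pair of pools shared over 0.06% of values among genes of at least 5 FPKM. Relative depth was the commonest ratio of values among genes under 0.15 FPKM in both pools compared. The 21843 of 27335 genes that averaged 0.5 FPKM or more were fitted as log2(FPKM + 1) with limma 3.58.1 in R 4.3.3, with a mean-variance trend, Benjamini-Hochberg adjustment over all genes and a threshold of 0.05. The fit was tested on simulated data with independent normal noise, which held no shift shared by the genes of a pool. That test therefore does not cover a difference such as that of pool 2. Members and lists were chosen with earlier results of these data known. Apart from members, genes named are those of each list that passed, up to 4 in each direction by p, the 2 of lowest p in lists with under 2 such genes, the duplicates of members, and 5 genes of like pattern. *npas4a*, *egr4*, *btg2*, *dusp1*, *egr2b*, *jdp2b*, *socs3a* and the epidermis markers were named outside this rule, after their values were seen. List symbols were matched directly, by older symbols or by RefSeq synonyms. Alternatives were another pseudocount, other filters, quantile and median scaling, no trend, the column number as a block and pools left out. A planned comparison of promoter and protein sequences was not run. Figures were drawn with matplotlib 3.10.9.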

Additional observations from a re-analysis of the deposited data

How the results depend on the processing

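Each of the 10 members kept a positive log2 fold change in every alternative that could be fitted for it, and their median lay between 0.77 and 1.29 with 1 pool left out and between 0.95 and 1.09 otherwise. The direction was fixed by the choice of members and is no sign of stability. The widest range was that of *fosab*, 0.93 to 2.63 with 1 pool left out. *atf3* and *fosl1a* could not be fitted with a filter of 5 FPKM. Counts of genes that passed depended on single pools. With 1 pool left out 15 to 422 genes passed in all, 0 to 1 other bZIP genes, 0 to 6 other immediate early genes, 0 to 1 upstream genes, 0 to 1 AP-1 targets and 0 to 3 heat shock genes, with the highest counts without wild-type pool 2. Without a filter 87 genes passed, with 1 immediate early gene and 0 AP-1 targets. With a filter of 5 FPKM *mmp9* could not be fitted either, and 0 AP-1 targets and 1 heat shock gene passed. Without the trend 38 genes passed, with 0 immediate early genes, 0 upstream genes and 0 AP-1 targets. Leaving out pool 2 of both genotypes, chosen after seeing the data, gave 145 genes, with 2 immediate early genes, 0 upstream genes, 0 AP-1 targets and 1 heat shock gene. Over all genes tested, same-numbered pools deviated from their genotype means with little relation (r = 0.017, 0.004 and 0.054 across genes, which are not independent replicates). These values cannot show whether same-numbered pools were paired, because sharing limited to some genes could leave them small. Pool 2 was the highest of both genotypes for all 10 members and for 15.2% of all genes tested. With the column number as a block 353 genes passed, with 1 bZIP gene, 8 immediate early genes and 2 heat shock genes. With that block 7 of 10 members were past the threshold, all higher in mutants (1.62% of all genes, 1.25% as higher). No filter left 0 of 10 members past it (0.329% of all genes), no trend 0 of 10 (0.174%) and a filter of 5 FPKM 0 of 8 (2.03%), so *atf3* was lost in each. Because this contrast chose the members, nothing is read from these counts either. With the block *nfkbiaa* was not past the threshold (limma adjusted p = 0.057), and *crema* (0.0289) and *hspa4a* (0.0234) were. The causes were not tested. Depth, known in relative terms, limits genes with pools near or below 1 FPKM, such as *fosl1a*, *fosb*, *fosl1b* and *mmp9*.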

Other observations

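Other bZIP and immediate early genes differed in how far they followed the members in pool 2. *egr2b*, a zinc finger gene of hindbrain and glial development, was at 2.47, 2.31 and 4.59 FPKM in wild-type pools 0 to 2 and at 4.07, 3.07 and 2.18 in mutant pools 0 to 2, so pool 2 was the highest wild-type pool and the lowest mutant pool. *jdp2b*, related to a mammalian inhibitor of AP-1 that pairs with Jun and with a deposited span that overlaps another gene, was at 0.462, 0.976 and 2.27 FPKM in wild-type pools and 1.15, 1.76 and 3.94 in mutant pools, with pool 2 the highest of both. *socs3a*, a feedback inhibitor of cytokine signaling, also had pool 2 as the highest of both, at 11.5, 12.4 and 23.3 FPKM in wild-type pools and 20.4, 18.8 and 36.7 in mutant pools. Neither *egr2b* nor *socs3a* passed between genotypes (limma adjusted p = 0.988 and 0.323), and nor did *jdp2b* (limma adjusted p = 0.512). These genes were chosen after their values were seen.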
